A study of Mus musculus with 10 samples.

Results

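The 9 S100 genes S100a1, S100a4, S100a6, S100a8, S100a9, S100a10, S100a11, S100a13 and S100b were followed across cell classes of the aged mouse inner ear. They were taken by symbol from the 32285 genes in the deposited gene lists. The members were chosen by their measured levels in hair, stromal and immune cells of these libraries, so levels between classes are given as a description without a test, and tests were kept to the difference between organs within a class. All libraries came from wild-type CBA/J mice aged 22 months, of both sexes, either from the cochlea, the organ of hearing (Cochlea group), or from the vestibular organs of balance (Vestibule group). Each biological replicate pooled 7 to 8 mice, and no young mice enter the values below. Of 10 libraries, 5 per organ, the second of each organ repeated the cells of the first and was left out, so n = 4 libraries per organ (replicates 1, 3, 4 and 5).

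S100 proteins are small calcium-binding proteins with EF-hand loops that mostly work as dimers, changing shape when calcium binds and then docking onto target proteins. Most of the genes sit in one cluster, each with its own cell types. S100a8 and S100a9 form calprotectin, the abundant cytosolic complex of neutrophils, S100b is best known from glia and cartilage, S100a10 pairs with annexin A2 at the plasma membrane, and S100a1 is known from muscle, where it acts on calcium release. In the inner ear, S100 antibodies have long been used to label supporting cells and some hair cells.

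On build GRCm38 (GENCODE M21), 8 of the 9 genes lay on chromosome 3 within 3053610 bases, and S100b lay on chromosome 10 (chr10:76253853-76261159, plus strand). S100a1 (chr3:90511034-90514392, minus strand) and S100a13 (chr3:90514435-90524581, plus strand) pointed away from each other with 42 bases between them. S100a4 (chr3:90603771-90606045) and S100a6 (chr3:90612882-90624181) followed on the plus strand with 6836 bases between. S100a8 (chr3:90668978-90670035, plus strand) and S100a9 (chr3:90692632-90695721, minus strand) pointed towards each other across 22596 bases. S100a11 (chr3:93520488-93526287) and S100a10 (chr3:93555080-93564643) lay 28792 bases apart, both on the plus strand. A processed pseudogene of S100a11 is annotated on chromosome 12, and reads shared with such a copy could make the S100a11 counts uncertain.

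RefSeq promoter sequence was found for 8 of the 9 members, S100a10 excepted. The bases between the RefSeq starts of S100a1 and S100a13 and the 250 bases before the starts of S100a8, S100a9, S100a6 and S100b are shown because these genes carry the main contrasts below. The sequences are RefSeq GRCm38.p6, written 5′ to 3′ on the strand of the gene, and for the S100a1 and S100a13 interval on the plus strand. Capitals mark one of these motifs, each searched on both strands. They are the TATA box with the letters TATAAA, the GC box with the letters GGGCGG, the CCAAT box, whose name spells its letters, and a CEBP-type motif with the letters TTGCNNAA.
S100a1 to S100a13, chr3:90514331-90514434, plus strand: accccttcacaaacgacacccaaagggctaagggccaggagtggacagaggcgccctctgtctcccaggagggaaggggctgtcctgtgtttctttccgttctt
S100a8, chr3:90668821-90669070, plus strand: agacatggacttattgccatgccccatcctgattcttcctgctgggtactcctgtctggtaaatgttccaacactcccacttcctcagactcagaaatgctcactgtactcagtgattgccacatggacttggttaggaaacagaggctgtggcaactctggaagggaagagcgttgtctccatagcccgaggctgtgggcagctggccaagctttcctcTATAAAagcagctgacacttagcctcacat
S100a9, chr3:90695722-90695971, minus strand: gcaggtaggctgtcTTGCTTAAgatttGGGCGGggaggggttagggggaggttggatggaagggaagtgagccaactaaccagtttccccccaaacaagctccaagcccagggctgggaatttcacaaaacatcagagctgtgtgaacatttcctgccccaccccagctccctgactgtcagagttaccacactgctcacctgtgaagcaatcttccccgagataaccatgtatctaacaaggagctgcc
S100a6, chr3:90612644-90612893, plus strand: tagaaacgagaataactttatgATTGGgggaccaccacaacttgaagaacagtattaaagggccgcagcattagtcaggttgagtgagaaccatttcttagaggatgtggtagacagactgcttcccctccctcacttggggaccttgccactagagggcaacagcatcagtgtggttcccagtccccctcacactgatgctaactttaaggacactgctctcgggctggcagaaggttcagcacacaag
S100b, chr10:76253586-76253835, plus strand: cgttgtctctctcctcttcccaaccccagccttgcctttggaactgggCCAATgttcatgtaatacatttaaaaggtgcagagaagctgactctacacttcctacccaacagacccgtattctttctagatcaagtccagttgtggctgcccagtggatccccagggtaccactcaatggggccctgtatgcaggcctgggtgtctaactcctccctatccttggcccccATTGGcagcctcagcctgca

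The 104 bases between the RefSeq starts of S100a1 and S100a13 held none of the 4 motifs, and the RefSeq starts used here differ from the GENCODE starts given above. S100a8 had a TATA box 30 bases before its start, S100a4 had one at 31 bases, and S100a9 had a CEBP-type motif and a GC box towards the far end of the window. S100b had 2 CCAAT boxes, S100a6 had 1, and S100a11 had 3 GC boxes. Over 32851 RefSeq promoters of the same length, a TATA box was present in 12.4%, a GC box in 32.7%, a CCAAT box in 33.8% and a CEBP-type motif in 9.56%. These matches are letters in a window and were not set against any measurement of binding.

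Values are counts of transcripts told apart by their molecular barcodes (unique molecular identifiers, UMIs) and read near the 3′ end. A library held 2738036 to 26974948 UMIs, and 571 to 5438 cells per library passed the filters, with replicate 3 of each organ holding more cells than its other replicates. Apart from the repeated libraries, pairs of libraries shared 0 to 41 barcodes. Clusters were named from markers that include no S100 gene, and S100 genes were left out of the genes used for clustering. Hair cell (HC)-like cells numbered 222 in the Cochlea and 2002 in the Vestibule, and all 6 HC markers were enriched in each of their clusters. A level is given as UMIs per 1000000 UMIs of that class in that library (CPM), as mean ± SD over libraries with at least 5 cells of the class. Because counts are relative within a class, a high S100 level in a class also lowers the other shares there.

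The 9 genes fell into different patterns over the classes. S100a1 and S100a13 were highest in cochlear supporting and epithelial-like cells and were also high in HC-like cells, S100a8 and S100a9 were highest in granulocyte-like cells, and S100a4 and S100a10 were highest in T or NK cell-like cells. S100b was highest in glia-like cells of the Cochlea (1 library) and stromal-like cells of the Vestibule, S100a11 in granulocyte-like cells, and S100a6 in granulocyte-like cells, followed by T or NK cell-like cells of the Cochlea. When the class-by-organ groups were ordered by level for each gene, the ranges of neighbouring groups overlapped in 19 to 22 of 22 neighbours.

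**Figure D1:**
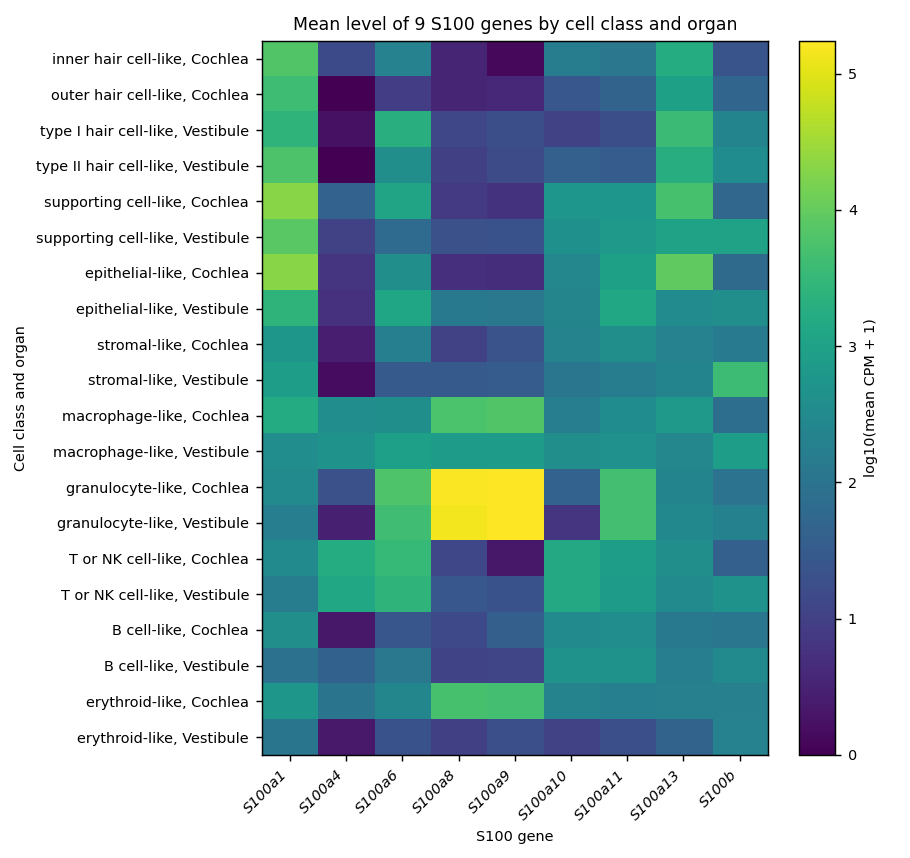
Heat map of the 9 S100 genes (columns) in 20 groups of cell class and organ (rows), coloured by log10 of mean CPM plus 1. S100a8 and S100a9 reach their maximum in the granulocyte-like rows of both organs, S100a1 in the cochlear supporting and epithelial-like rows, and S100b among these rows in the vestibular stromal-like row.

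S100a1, a calcium sensor best known from muscle, was at 20556 ± 1504 CPM in cochlear epithelial-like cells and 20509 ± 1539 CPM in cochlear supporting cell-like cells (n = 4 libraries). Its highest cluster, at 37459 ± 4467 CPM, was an unnamed cochlear cluster of 311 cells led by Gm48242, Lgals1 and Tdrd12. S100a13, which binds copper and takes part in the release of FGF1 and interleukin 1 alpha, was at 13537 ± 2096 CPM in the cochlear epithelial-like cluster led by Pcdh17, Vldlr and Tnnt2. Both genes were thus high in the cochlear epithelial-like class, and their detection in the same single cells of that class was not counted. The Pcdh17-led cluster held 314 of the 922 cells of that class, at a median of 6806.5 UMIs. It was named from Epcam, Krt8, Krt18 and Cldn7, with Aqp4 and Hey2 also among its leading genes. Whether its cells are supporting cells was not tested. Over 62 clusters of both organs, the levels of the neighbours S100a1 and S100a13 had a Pearson r of 0.87 on the log2(CPM + 1) scale. Being neighbours did not go with a high r for most members. The r was −0.04 for S100a13 and S100a4, 0.51 for S100a4 and S100a6, and 0.47 for S100a6 and S100a8. It was 0.42 for S100a9 and S100a11 and 0.39 for S100a11 and S100a10. The points share libraries and depth, so this is a description without a test.

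In HC-like cells S100a1 was at 6769, 5036, 8017 and 5265 CPM in cochlear replicates 1, 3, 4 and 5, while it was at 2947, 3182, 4323 and 2312 CPM in the same replicates of the Vestibule. All cochlear libraries were above all vestibular ones. The difference, Vestibule minus Cochlea on the log2 scale, was −1.0 ± 0.25 (SE), with an adjusted p of 0.00361 (edgeR quasi-likelihood test, Benjamini-Hochberg over all genes tested in the class). It was −0.63 (adjusted p 0.059, edgeR) when the 5% of cells with most UMIs were left out. In the rest of the same libraries S100a1 was at 10275 to 12990 CPM in the Cochlea and at 1127 to 3121 CPM in the Vestibule. Taken as a ratio to the rest of the library, an alternative added after seeing the data, S100a1 of HC-like cells was higher in the Vestibule by 1.44 on the log2 scale (exact two-sided permutation test, p = 0.0286, the smallest that 4 against 4 libraries allow). The part of free RNA in the cochlear level was not tested.

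S100a6, or calcyclin, a partner of the ubiquitin ligase adaptor Cacybp and of annexins, was the member with the largest rise in vestibular HC-like cells. Its cochlear values were 89.4, 142, 268 and 237 CPM for replicates 1, 3, 4 and 5, with 1166, 1309, 2610 and 1662 CPM for the vestibular libraries. The groups did not overlap. The log2 difference was 3.19 ± 0.33 (SE), with an adjusted p of 1.87e-07 (edgeR). As a ratio to the rest of the library it was 2.31 (exact two-sided permutation test, p = 0.0571).

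S100a13 was at 2248, 959, 2083 and 1681 CPM in cochlear HC-like cells and at 3030, 3299, 4820 and 2567 CPM in vestibular ones, for replicates 1, 3, 4 and 5. Each vestibular library lay above each cochlear one, with a log2 difference of 0.96 ± 0.27 (SE) and an adjusted p of 0.00823 (edgeR). S100b was at 25.5, 65.5, 3.4 and 9.6 CPM in the Cochlea and at 199, 434, 265 and 116 CPM in the Vestibule, without overlap (log2 difference 2.89 ± 0.47, SE).

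S100a10 and S100a11 went the other way in HC-like cells. S100a10 was at 70.2, 99.9, 271 and 122 CPM in the Cochlea and at 12.1, 23.6, 17.4 and 8.6 CPM in the Vestibule. S100a11, which binds annexin A1, was at 54.3, 113, 113 and 147 CPM in the Cochlea and at 14.5, 37.1, 18.0 and 11.4 CPM in the Vestibule. Neither gene overlapped between the organs, and the log2 differences were −3.02 ± 0.36 and −2.26 ± 0.33 (SE). Thus all 6 members that passed the filter on low counts were past the threshold in HC-like cells, 3 higher in each organ, beside 37.2% of the 8924 genes tested (20% higher in the Vestibule and 17.3% in the Cochlea). S100a4, S100a8 and S100a9 did not pass the filter there. A gene can pass this filter through either organ alone. S100b was low in the Cochlea, and S100a10 and S100a11 were low in the Vestibule. The count of 6 is therefore a description and no support for a shared pattern. The 6 supporting cell markers summed to 730 to 1613 CPM in cochlear HC-like cells and 194 to 317 CPM in vestibular ones, with all 6 detected in every library. By type they summed to 794 to 2162 CPM in inner and 0 to 424 CPM in outer HC-like cells. The sums were 52.9 to 223 CPM in type I and 742 to 1017 CPM in type II. Inner HC-like cells numbered 146 (median 9679.5 UMIs) and outer ones 76 (median 2761.5 UMIs). The part of these markers and of the mix of types in the organ differences was not tested.

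Most of the S100a6 of vestibular HC-like cells came from one cluster. Cluster 12, with 292 cells, was led by S100a13, Gm45261 and Fndc1, with S100a6 also among its leading genes. It held 14.6% of the vestibular HC-like cells, 85.9% of their S100a6 UMIs, 78.6% of their S100a13 UMIs and 50.7% of their S100a1 UMIs. The rule placed it with type I HC-like cells, and 4 of the 5 type I markers measured, Spp1 and Kcna10 among them, were above the other vestibular HC-like cells. The exception was Ocm, at 13.4 CPM. Of the 6 type II markers, 2 were above the other HC-like cells, Cib3 at 2494 CPM against 1256 CPM and Kcnip2 at 0.71 against 0.31 CPM, and the list summed to 2576 CPM in cluster 12 and 2126 CPM in the type II-like cluster 11. Sox2 was at 2.83 CPM and Calb2 at 7.78 CPM in cluster 12, against 559 and 333 CPM in cluster 11.

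S100a6 was at 8786, 6285, 8582 and 12545 CPM in cluster 12 in replicates 1, 3, 4 and 5. S100a13 was at 18854, 14686, 15144 and 16563 CPM there, and S100a1 at 9605, 9368, 9402 and 8282 CPM. The cluster was high for all 3 genes in every library. S100a6 and S100a13 were both detected in 84.6% of its cells, at a median of 4683 UMIs per cell. In cluster 4, type I-like and of similar depth (median 4393.5 UMIs), both were detected in 3.70% of 648 cells. In the shallower type I-like cluster 7 (median 1511 UMIs) this share was 15.2% of 389 cells, in the Ocm-led cluster 9 it was 7.43% of 350 cells, and in the type II-like cluster 11 it was 20.7% of 323 cells. With every cell thinned to 1000 UMIs, S100a6 was detected in 71.6% of cells of cluster 12 (95% exact binomial interval 66.0 to 76.7) and 4.01% of cells of cluster 4 (2.64 to 5.82). Vestibular supporting cell-like cells had S100a6 at 49.0 to 84.1 CPM. Since clusters were cut from these cells, the comparison between clusters carries no test.

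**Figure D2:**
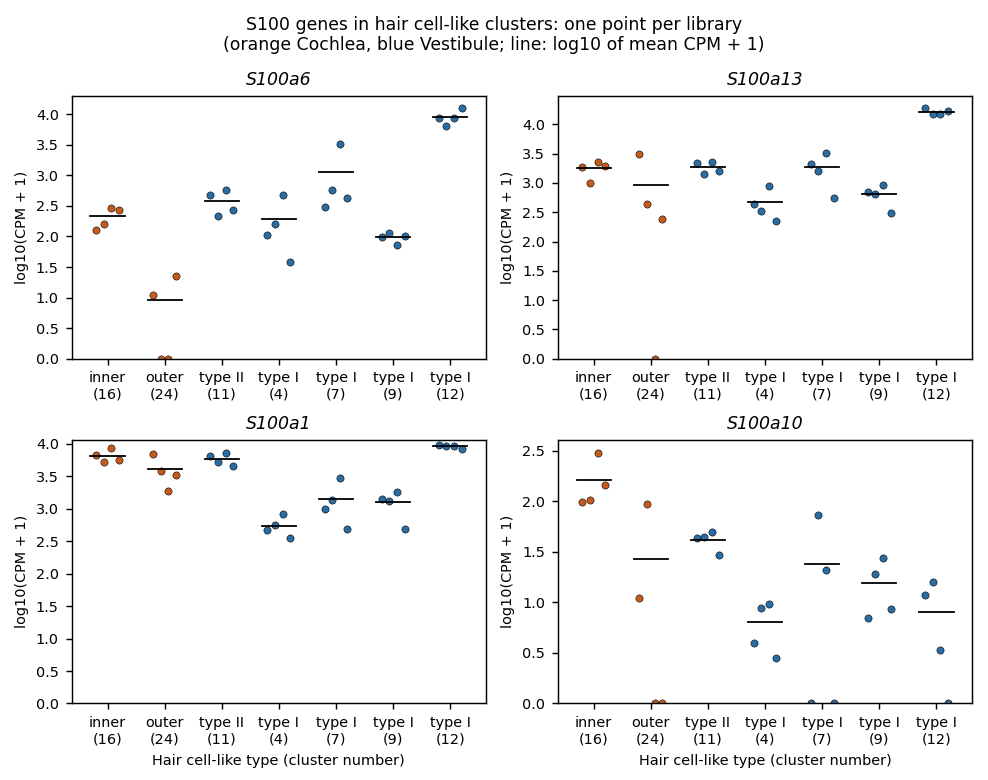
S100a6, S100a13, S100a1 and S100a10 in HC-like clusters (x axis, type and cluster number), as log10 of CPM plus 1, with one point per library of at least 5 cells and a line at the mean. Cluster 12 lies above the other vestibular clusters for S100a6, S100a13 and S100a1 but not for S100a10.

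Without cluster 12, an alternative added after seeing the data, the organ difference in HC-like cells was 0.68 for S100a6 and −0.89 for S100a13 (edgeR). The cluster was picked through its S100a13 and holds most UMIs of both genes. Lower vestibular values were thus built in, and no p-value is given. In the rest of the libraries S100a13 was at 3106 to 4440 CPM in the Cochlea and at 315 to 565 CPM in the Vestibule. The part of free RNA in these S100a13 levels was not tested. The sign of S100a13 thus turned without cluster 12 and the call of S100a6 ended, while 4 of the 6 calls were kept.

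Among the HC types, S100a1 was at 6513 ± 1555 CPM in inner HC-like cells, 4030 ± 2179 CPM in outer HC-like cells, 2545 ± 921 CPM in those of type I and 5912 ± 1245 CPM in those of type II (n = 4 libraries each). The ranges of inner, outer and type II HC-like cells overlapped, so their order is not resolved. S100a6 was at 213 ± 84.1 CPM in inner and 7.99 ± 10.4 CPM in outer HC-like cells, and the outer libraries, of which 2 had no S100a6 UMI, all lay below the inner ones. In the Vestibule, type I HC-like cells had S100a6 at 1991 ± 743 CPM, and the type II HC-like cells had 385 ± 169 CPM. That order rests on cluster 12, since without it, an alternative added after seeing the data, type I HC-like cells had S100a6 at 125, 215, 636 and 99.2 CPM in replicates 1, 3, 4 and 5, a range that overlaps the 216 to 580 CPM of type II. S100a10 was at 160 ± 95 CPM in inner HC-like cells, with vestibular type II HC-like cells at 40.4 ± 8.60 CPM.

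In stromal-like cells the leading change was that of S100b. S100b was at 206, 275, 50.9 and 55.0 CPM in cochlear stromal-like cells, and at 4638, 4384, 3417 and 3178 CPM in vestibular ones. Every vestibular library was above every cochlear one, with a log2 difference of 4.98 ± 0.43 (SE) and an adjusted p of 2.32e-09 (edgeR). With cells thinned to 1000 UMIs, S100b was detected in 88.4% of vestibular and 16.8% of cochlear stromal-like cells, against 95.1% and 27.4% unthinned (median 1661 and 1588 UMIs). The thinned shares were 37.0% and 11.5% in macrophage-like cells, a class not known for S100b (median 2766 and 2398 UMIs). The 6 supporting cell markers summed to 4649 to 5604 CPM in vestibular and 1369 to 2335 CPM in cochlear stromal-like cells, with Sox2 at 0 in 5 of the 8 libraries, and their part in the S100b difference was not tested.

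Different clusters hold the stromal-like class in the organs. In the Cochlea they were cluster 0 (led by Ccl11 and Scn7a) and cluster 15 (led by Mgp and Slc47a1), and in the Vestibule cluster 0 (led by Lum and Slco1a4) and cluster 1 (led by Otos and Gm525). S100b was at 3432 ± 743 CPM in vestibular cluster 0 and 5148 ± 981 CPM in vestibular cluster 1. Its highest clusters were unnamed, namely vestibular cluster 5 (led by Gm525, S100b and Otos) at 12322 ± 3061 CPM and vestibular cluster 3 (led by Ucma and Otor) at 7790 ± 1711 CPM. In the Cochlea, the Otos-led cluster 12 of 220 cells, also unnamed, had S100b at 2396, 2481, 12091 and 8270 CPM in replicates 1, 3, 4 and 5. S100b was therefore also high in cochlear cells led by Otos, which the stromal-like class of the Cochlea does not hold.

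S100a6, S100a10 and S100a11 were lower in vestibular stromal-like cells. S100a6 was at 138, 231, 191 and 180 CPM in the Cochlea and at 13.3, 45.2, 30.7 and 27.4 CPM in the Vestibule, without overlap (log2 difference −2.21 ± 0.25, SE, adjusted p 2.66e-07 with edgeR). S100a11 was at 268 to 458 CPM in the Cochlea and 117 to 192 CPM in the Vestibule, a log2 difference of −0.89 ± 0.22 (SE). S100a10 was at 198 to 252 CPM and at 104 to 120 CPM, a log2 difference of −0.66 ± 0.19 (SE). This call ended with S100 genes kept for clustering (−0.22, adjusted p 0.467) and at resolution 0.5 (−0.47, adjusted p 0.0882, edgeR). It also ended without a filter on low counts (−0.59, adjusted p 0.0657, edgeR). S100a1 was at 382 to 861 CPM in the Cochlea and 638 to 1056 CPM in the Vestibule, and the ranges overlapped (0.86 ± 0.26, SE, adjusted p 0.0187 with edgeR). Without TMM factors S100a1 was at 0.45 (adjusted p 0.181, edgeR).

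S100a9 was called in stromal-like cells at 0 to 68.8 CPM against 0 to 75.9 CPM, in ranges that overlapped almost whole (log2 difference 1.87 ± 0.63, SE). As a ratio to the rest of the library its difference was −0.93 (exact permutation test, p = 0.571). S100a13 was not past the threshold (0.31 ± 0.24, SE). In total 6 of the 7 members tested were past the threshold, 3 higher in each organ, beside 21.5% of all genes (10.4% higher in the Vestibule and 11.1% in the Cochlea), and without the Otos-led cluster 1 the calls were S100a6 (−2.44), S100a11 (−0.86) and S100b (4.72). That alternative left S100a1 at 0.61 (adjusted p 0.108) and S100a10 at −0.48 (adjusted p 0.0887, edgeR), and S100a9 has no value under it.

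Granulocyte-like cells had the highest S100a8 and S100a9 of all classes. S100a8 was at 164508 and 166607 CPM in the 2 cochlear libraries with at least 5 such cells, and at 141113, 149337, 128689 and 149831 CPM in Vestibule replicates 1, 3, 4 and 5. S100a9 was at 183873 and 164972 CPM in the Cochlea, and at 150249, 138423, 193798 and 197277 CPM in the Vestibule. Every library with granulocyte-like cells was high for both genes. S100a8 was detected in 100% of 74 cochlear and 96.7% of 361 vestibular granulocyte-like cells, and in 3.60% and 5.49% of HC-like cells, which should lack it (median 2242 and 3391 UMIs per granulocyte-like cell, and 5402 and 3794.5 UMIs per HC-like cell). With only 2 cochlear libraries no organ test was made for this class.

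The ratio of S100a9 to S100a8 UMIs in granulocyte-like cells was 1.12, 0.990, 1.27 and 1.11 in the 4 cochlear libraries, against 1.06, 0.927, 1.51 and 1.32 in the vestibular ones. Libraries with 3 granulocyte-like cells are included here, since a ratio of many UMIs needs few cells. The groups overlapped, and the difference of the mean log2 ratios was 0.08 (exact two-sided permutation test, p = 0.743, also 0.743 adjusted over the 2 ratios tested). Without Vestibule replicate 4 the sign turned, at −0.03. Over 62 clusters the levels of S100a8 and S100a9 had a Pearson r of 0.96, and this is again a description.

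Within the Vestibule there were 2 granulocyte-like clusters. Cluster 20, led by Camp, Ngp and Ltf, genes of granules in maturing neutrophils, had S100a8 at 159246 ± 19171 CPM (n = 3 libraries). Cluster 17, led by Cxcl2, Il1b and Il1rn, had S100a8 at 95563 ± 31804 CPM (n = 4). S100a6 and S100a11 were ordered the other way, at 8890 ± 5006 and 8360 ± 1755 CPM in cluster 17 and at 3252 ± 159 and 3433 ± 181 CPM in cluster 20. The lowest S100a6 value of cluster 17, 2386 CPM in replicate 1 with 5 cells, lay below the values of cluster 20, while S100a11 did not overlap.

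**Figure D3:**
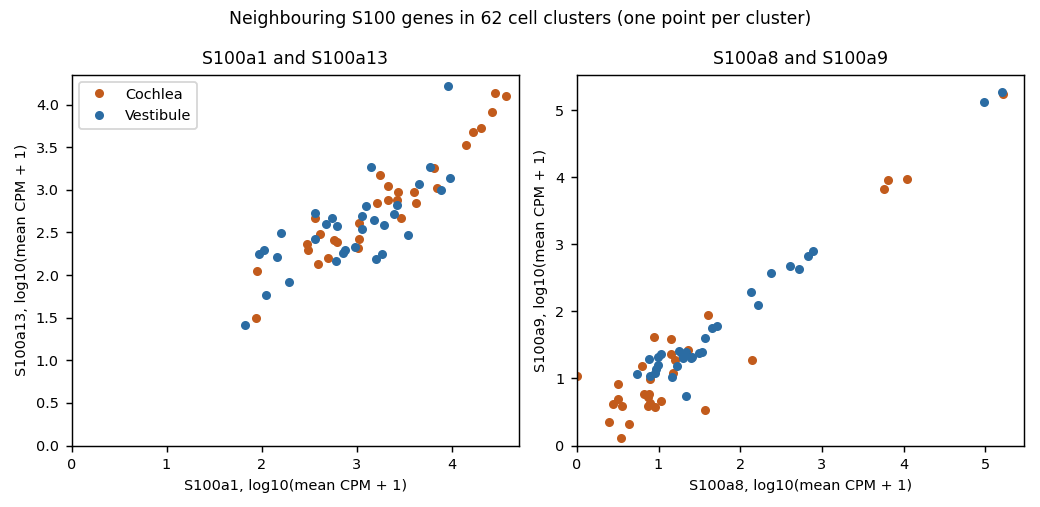
Mean levels of the neighbours S100a1 and S100a13 (left) and S100a8 and S100a9 (right) in 62 clusters, both axes as log10 of mean CPM plus 1, orange for Cochlea and blue for Vestibule. Points rise together in both panels, with r of 0.87 and 0.96 on the log2 scale, and the granulocyte-like clusters stand at the top right of the right panel. The other neighbouring members on chromosome 3, not drawn, had an r of −0.04 to 0.51.

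In macrophage-like cells S100a8 was at 35.3, 334, 0 and 22540 CPM in the Cochlea and at 0, 1021, 1007 and 1069 CPM in the Vestibule. S100a9 was at 82.3, 238, 0 and 26164 CPM and at 0, 944, 928 and 1330 CPM. One cochlear library, replicate 5 with 25 cells, was far above the rest. In that library the 8 granulocyte markers summed to 15292 CPM, with 5 detected and Retnlg, Mmp8 and Mmp9 at 0, against 85.6 to 223 CPM in the other cochlear libraries and 0 to 530 CPM in the vestibular ones. Their part in the S100a8 and S100a9 levels was not tested. Neither gene was past the threshold (log2 differences −2.88 ± 1.51 and −3.04 ± 1.54, SE), and without that library the differences were 2.27 and 2.58, so no direction can be given.

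Of all 9 members tested in macrophage-like cells, S100b was the one past the threshold, beside 0.528% of the 2650 genes (0.264% in each direction). It was at 118, 139, 28.5 and 23.4 CPM in the Cochlea and at 1580, 602, 632 and 491 CPM in the Vestibule. The groups did not overlap, with a log2 difference of 3.05 ± 0.50 (SE) and an adjusted p of 0.0238 (edgeR), which rose to up to 0.151 when Cochlea replicate 1 or 4 or Vestibule replicate 3, 4 or 5 was left out. In the rest of the libraries S100b was at 253 to 385 CPM in the Cochlea and at 1024 to 1983 CPM in the Vestibule, and as a ratio to that rest the difference was 1.46 (exact permutation test, p = 0.171). The stromal markers summed to 317 to 909 CPM in cochlear and 1144 to 5978 CPM in vestibular macrophage-like cells. The part of RNA from stromal cells in this difference was not tested.

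S100a4, also called metastasin, a partner of non-muscle myosin, was at 964, 316, 28.5 and 140 CPM in cochlear and 214, 797, 443 and 520 CPM in vestibular macrophage-like cells. Its groups overlapped (log2 difference 0.51 ± 0.58, SE), as did those of S100a6 (1.22 ± 0.65). Values of S100a6 were 57.0 to 776 CPM and 42.7 to 1359 CPM. With cells under 10% mitochondrial UMIs alone, clustered and named anew, 7 members were past the threshold in this class. The count of 1 thus changes with that setting. The parts of the cells kept and of the changed class membership were not tested.

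T or NK cell-like cells were the class with the highest S100a4 and S100a10. S100a4 was at 1746, 1985, 1932 and 1302 CPM in the Cochlea and at 2132, 1038 and 1049.5 CPM in Vestibule replicates 3, 4 and 5. S100a6 was at 2457, 2718, 3924 and 4074 CPM and at 2694, 2940 and 1928 CPM. The ranges of both overlapped between the organs. S100a10 was at 845 to 1789 CPM and 1399 to 1592 CPM, and S100a11 at 724 to 1052 CPM and 692 to 966 CPM. None of the 6 members tested was past the threshold with edgeR, beside 0% of 900 genes, of which 29 had an unadjusted p under 0.05. DESeq2 also called 0.

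Among cochlear T or NK cell-like cells the levels were higher in cluster 22, led by the gamma-delta T cell genes Trdv4, Trdc and Cd163l1. S100a4 was at 2733 ± 315 CPM in it and 745 ± 362 CPM in cluster 20, led by Ms4a4b, Ccl5 and Nkg7. S100a10 was at 2175 ± 487 CPM and 885 ± 332 CPM in the same clusters. Cluster 22 rests on 2 libraries and cluster 20 on 4, and their ranges did not overlap for either gene.

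In B cell-like cells S100a10 was at 283 to 332 CPM in the Cochlea and 463 to 561 CPM in the Vestibule. S100a4, at 0 to 3.6 CPM in the Cochlea and 0 to 91.2 CPM in the Vestibule, did not pass the filter there. S100a1 was the 1 of 6 tested members past the threshold, beside 1.35% of 1776 genes (1.13% higher in the Vestibule and 0.225% in the Cochlea), at 162 to 733 CPM against 0 to 146 CPM without overlap (log2 difference −2.42 ± 0.46, SE, adjusted p 0.00989 with edgeR). As a ratio to the rest of the library this difference was −1.04 (exact permutation test, p = 0.971), and without Cochlea replicate 3 it was −0.69 (adjusted p 0.776 with edgeR).

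**Figure D4:**
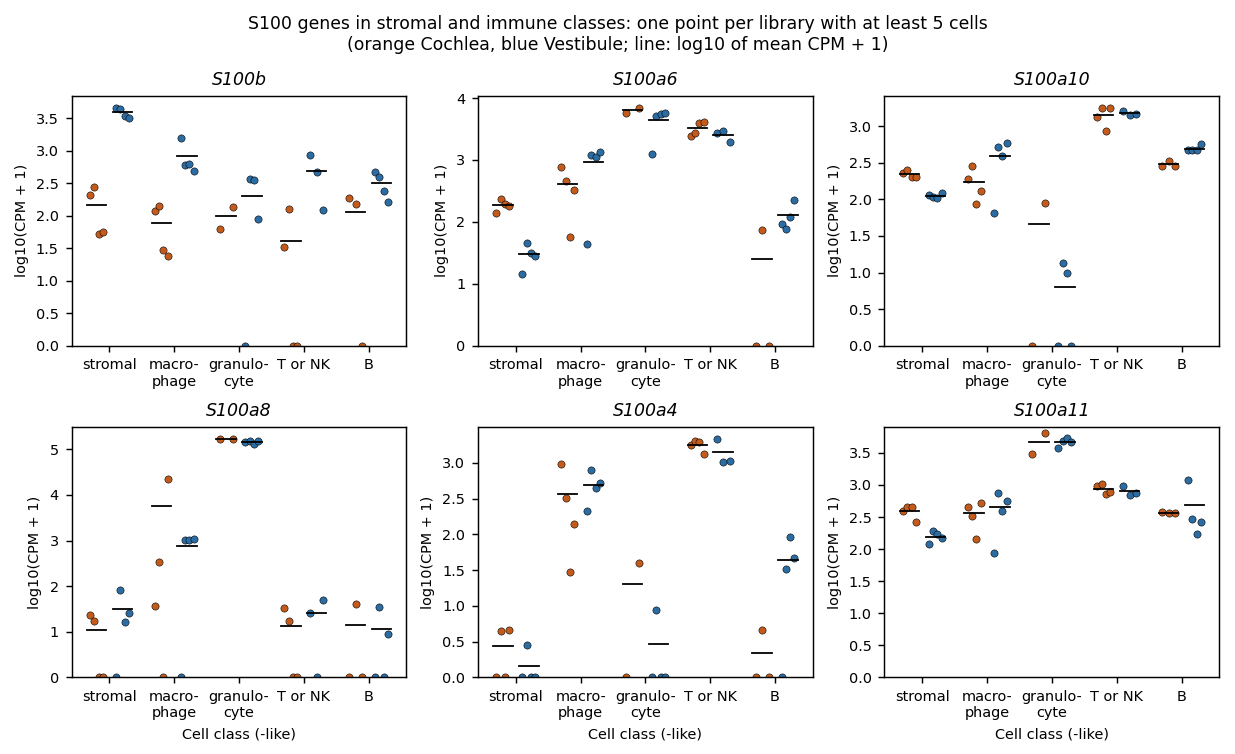
S100b, S100a6, S100a10, S100a8, S100a4 and S100a11 in stromal-like and 4 immune classes, as log10 of CPM plus 1, with one point per library of at least 5 cells and a line at the mean (orange Cochlea, blue Vestibule). S100b separates the organs in stromal-like and macrophage-like cells, S100a8 stands highest in granulocyte-like cells, and S100a4 and S100a10 stand highest in T or NK cell-like cells.

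Erythroid-like cells were called higher in the Cochlea for 5 of 8 members tested, beside 7.31% of genes (2.34% higher in the Vestibule and 4.97% in the Cochlea). S100a8 was at 9038, 6801 and 38.1 CPM in Cochlea replicates 1, 3 and 5 and at 0 to 14.2 CPM in the Vestibule. Such a gene can pass the filter on low counts through the Cochlea alone. The granulocyte markers summed to 5456, 2535 and 9.53 CPM in those cochlear libraries and to 0 to 15.4 CPM in the vestibular ones, and their part was not tested. The other members called were S100a6, S100a9, S100a10 and S100a11. The call ended for S100a11 without Cochlea replicate 3 (−2.07, adjusted p 0.127) and for S100a6 without Vestibule replicate 4 (−2.53, adjusted p 0.0699, edgeR).

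S100b was at 33.1, 101, 21.5 and 53.5 CPM in cochlear supporting cell-like cells and at 1012, 1187, 1129 and 860 CPM in vestibular ones, without overlap (log2 difference 4.07 ± 0.34, SE). S100a6 was at 459, 1866, 1180 and 1010 CPM and at 49.0, 80.9, 84.1 and 57.0 CPM, lower in every vestibular library (−4.08 ± 0.36). S100a13 was at 4484 to 6284 CPM and 943 to 1239 CPM (−2.34 ± 0.24), and S100a1 at 19261 to 22755 CPM and 6842 to 9360 CPM (−1.41 ± 0.24), both without overlap. These were the 4 of 6 tested members past the threshold, beside 28.8% of genes (16.5% higher in the Vestibule and 12.2% in the Cochlea). As a ratio to the rest of the library, S100a1 of this class was higher in the Vestibule by 0.94 (exact permutation test, p = 0.0286) and S100a13 was at −0.60 (p = 0.0571).

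In epithelial-like cells 3 of 6 tested members were past the threshold, beside 13.5% of genes (6.93% higher in the Vestibule and 6.59% in the Cochlea). S100a13 was at 9127, 8658, 8432 and 10763 CPM in the Cochlea and at 231, 633, 242 and 216 CPM in the Vestibule, far apart (−4.83 ± 0.43, SE). S100a1 was at 18727 to 22153 CPM and 1657 to 2918 CPM (−3.10 ± 0.30), and S100b at 44.3 to 102 CPM and 292 to 561 CPM (2.52 ± 0.33). With cells clustered at resolution 2, S100a13 was at −1.87 (adjusted p 0.0126) and S100a1 at −1.20 (adjusted p 0.0477, edgeR). S100a6 was at 1059, 236, 86.4 and 155 CPM and at 606, 3646, 546 and 124 CPM, and it was not past the threshold (1.72 ± 0.91). Its direction turned, to −2.75 (adjusted p 0.00902, edgeR), when the 5% of cells with most UMIs were left out. The clusters of this class differ between the organs: the cochlear ones were led by Crhbp, Pcdh17 and Otoa, and the vestibular ones by Abca13, Apoa4, Bpifa1, Vmo1 and AU040972. The organ differences of this class therefore compare unlike clusters, and they are not those of a matched cell type.

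S100b was not past the threshold in B cell-like (0.85, adjusted p 0.578) or erythroid-like cells (1.09, adjusted p 0.363, edgeR). In T or NK cell-like cells it was not tested. It was higher in the Vestibule in all 5 of the classes plotted, which leave those classes out. In these classes as a ratio to the rest of the library it remained higher by 3.32 in stromal-like and 2.41 in supporting cell-like cells (exact permutation test, p = 0.0286 for both), by 1.36 in HC-like (p = 0.257), by 1.46 in macrophage-like (p = 0.171) and by 0.56 in epithelial-like cells (p = 0.171). Over whole libraries S100b was at 247 to 373 CPM in the Cochlea and at 990 to 1920 CPM in the Vestibule.

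**Figure D5:**
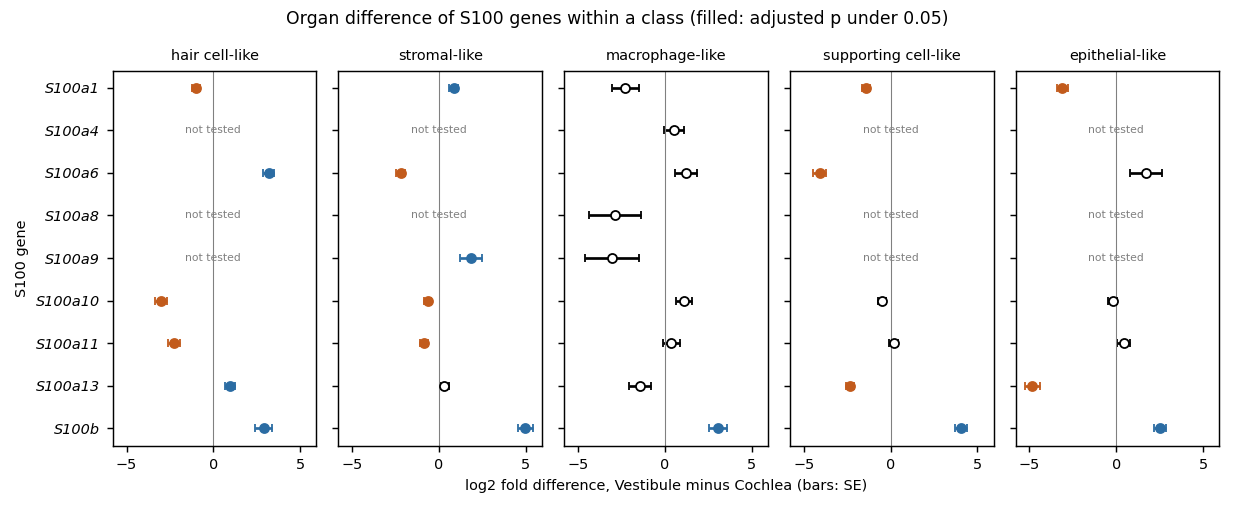
Log2 organ difference (Vestibule minus Cochlea, bars are the SE from edgeR) of each member within 5 classes, filled where the adjusted p was under 0.05, blue for higher in Vestibule and orange for higher in Cochlea. S100b is filled blue in all 5 panels, while S100a6 is blue in HC-like cells at 3.19 and orange in stromal-like cells at −2.21 and supporting cell-like cells at −4.08.

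Whether an organ difference itself differed between classes was tested with an interaction term. Between HC-like and stromal-like cells, 5 of the 8 members tested were past the threshold, beside 28.8% of genes. S100a6 had the largest of these differences, higher in HC-like cells by 5.42 ± 0.36 (SE) on the log2 scale, with an adjusted p of 9.59e-16 (edgeR). This value joins the HC-like difference, 3.19 with and 0.68 without cluster 12, and the stromal-like difference of −2.21. It is therefore not a measure of HC-like cells alone. S100a1, S100a10, S100a11 and S100b differed by −1.91, −2.19, −1.50 and −2.10. Between HC-like and macrophage-like cells 6 of 9 were past the threshold, beside 11.5% of genes. They were S100a6 (2.23), S100a10 (−3.94), S100a11 (−2.74), S100a13 (1.91), S100a4 (−4.17) and S100a9 (5.89). The last 2 passed the filter on low counts through macrophage-like cells and not in HC-like cells, where S100a4 averaged 11.2 CPM in the Cochlea and 0.58 CPM in the Vestibule and S100a9 0.55 and 16.9 CPM, so their values are no support for a difference in HC-like cells. The S100a9 value was 1.27 (adjusted p 0.515, edgeR) without Cochlea replicate 5, whose macrophage-like cells held the granulocyte markers. Without the S100a13-led cluster 12, the value of S100a6 between HC-like and macrophage-like cells went from 2.23 to −0.47 and that of S100a13 from 1.91 to 0.02 (edgeR). Neither was then past the threshold, and these falls were likewise built in by the choice of cluster. S100a13 was also at 1.05 (adjusted p 0.186) without Cochlea replicate 5 and at 1.49 (adjusted p 0.105) without Cochlea replicate 3. Between stromal-like and macrophage-like cells 5 of 9 were past the threshold, beside 7.23% of genes. Of these, S100a13 (1.55) was at 0.69 (adjusted p 0.351) without Cochlea replicate 5.

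Of 19 binding partners and receptors of S100 proteins and related genes on a list, Anxa2, the annexin bound by S100a10, fell with S100a10 in vestibular HC-like cells by 3.51 on the log2 scale and in stromal-like cells by 2.12. In HC-like cells 10 of the list were tested, of which Atp2a2, a calcium pump of the endoplasmic reticulum, was higher in the Vestibule (0.85) and Anxa2 and Anxa6 (−1.52) were lower. These were 3 of 10, beside 37.2% of all genes. The median of the list was −0.04 there, against 0.02 for all genes. In stromal-like cells Bsg was higher (0.89) and Myl9, Anxa2, Ahnak and Anxa1 were lower, 5 of 12 tested beside 21.5% of all genes, with a median of 0.14 against 0.03 for all genes. In supporting cell-like cells 6 of 10 were past the threshold, beside 28.8% of all genes. Ahnak (3.9), Anxa6 (1.52), Myl9 (1.40), Atp2a2 (1.30) and Bsg (0.96) were higher in the Vestibule and Sugt1 (−0.62) lower, with a median of 0.43 against −0.03. In epithelial-like cells 3 of 13, beside 13.5% of all genes, were called, Fgf1 (2.88) and Myh9 (0.86) higher and Anxa2 (−1.27) lower, with a median of 0.49 against 0.03. In erythroid-like cells 4 of 10, beside 7.31% of all genes, were called, Bsg (1.74) higher and Myh9 (−1.62), Ahnak (−1.65) and Anxa1 (−3.17) lower, with a median of −0.73 against −0.03. None of the list was past the threshold in macrophage-like, B cell-like or T or NK cell-like cells. The ratio of S100a10 to Anxa2 UMIs in stromal-like cells was 0.5, 1.10, 2.67 and 1.54 in the Cochlea and 1.68, 2.98, 3.94 and 4.89 in the Vestibule. The groups overlapped, with a difference of mean log2 ratios of 1.35 (exact two-sided permutation test, p = 0.0571, adjusted 0.114 over the 2 ratios).

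Among the other S100 genes in the lists, S100a16 reached 676 CPM in cochlear glia-like cells, in 1 library of 18 cells. Its organ difference was 2.91 in supporting cell-like, 1.11 in epithelial-like and −0.66 in stromal-like cells, each past the threshold (edgeR). S100pbp, S100a14 and S100a5 reached 36.7, 29.5 and 20.5 CPM in their highest class, and S100z had 0 UMIs. The genes whose levels over 24 class-by-organ means were most like those of a member, by Pearson r of log2(CPM + 1) among 15491 genes, were Wfdc21, Ngp and Chil3 for both S100a8 and S100a9 (r of 0.94 to 0.97). For S100b they were Sox8, Cmtm5 and Gpd1 (0.76 to 0.83), for S100a4 Ccr2, Klrb1f and Ada (0.83 to 0.84), and for S100a1 Skp1a, Fbxo2 and Twf1 (0.86 to 0.88). For S100a13 they included Pde6d and Skp1a, for S100a11 Myl12a, Ier2 and Plp2, for S100a10 the ribosomal protein genes Rpl23a, Rpl11 and Rpl37, and for S100a6 Smg9, Gnb2 and Agps. All points share the same libraries.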

How the data were processed

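Single-cell RNA-seq (10x, 3′) of Cochlea and Vestibule gave whole-number UMI counts per gene and cell, which the authors made with Cell Ranger on mm10 (version 6.1.2 in the submitters' processing notes, 5.0.1 in 4 and 6.1.2 in 6 matrix headers) and deposited as count matrices. Replicate 2 of each organ shared 1313 of 1313 and 1633 of 1641 barcodes with replicate 1 and was left out. Counts over the shared barcodes were closer than separate samplings of the same cells would give (mean chi-square per gene 0.125 and 0.120). Where nothing separates further cultures or animals, p-values measure the spread between pooled libraries.

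Kept cells had 200 or more genes, 1000 or more UMIs and less than 25% mitochondrial UMIs. They were clustered per organ with Seurat 5.3.0 (2000 variable genes less the S100 genes, 30 principal components, resolution 1). A cluster could be named where at least 3 markers of a class were in at least 25% of its cells at a log2 fold of at least 1. The class with most such markers was taken. A cluster stayed unnamed where classes still tied or another class had more markers among its leading genes. Shallow clusters with no marker among these genes also stayed unnamed. Unnamed cells, 3047 in the Cochlea and 2640 in the Vestibule, entered no organ test. No doublet caller was run. Summed counts of each library and class (5 or more cells) entered edgeR 4.0.16 (quasi-likelihood, TMM, Benjamini-Hochberg, threshold 0.05), which was checked on simulated data. Interactions were fitted with library, class and class-by-organ terms. Ratios used exact permutation tests, and intervals are 95% exact binomial, covering counting error only. DESeq2 1.42.0 and other settings were alternatives. All 9 members are given, with the listed partners that were called, and members and lists were chosen with earlier results of these data known.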

Additional observations from a re-analysis of the deposited data

Results flagged for a closer look

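In 10 of 73 groups of 4 libraries with a mean of at least 50 CPM, 1 library stood apart from the other 3. The cut used gives about 1 in 20 groups for independent, normally distributed values. The groups here share libraries, and HC-like cells enter again by type, so the count cannot be set against that rate. In macrophage-like cells of Cochlea replicate 5 (25 cells), S100a8 was at 22540 CPM, S100a9 at 26164 CPM and S100a13 at 1964 CPM. In macrophage-like cells of Vestibule replicate 1 (11 cells), S100a8 was at 0 CPM and S100b at 1580 CPM. In granulocyte-like cells, S100a6 was at 1266 CPM in Vestibule replicate 1 (7 cells) and S100a13 at 555 CPM in Vestibule replicate 4. In B cell-like cells, S100a11 was at 1210 CPM in Vestibule replicate 1 (5 cells) and S100a10 at 561 CPM in Vestibule replicate 5. In outer HC-like cells, S100a13 was at 3051 CPM in Cochlea replicate 1.

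The organ difference itself differed between classes for 16 pairs of gene and contrast (log2, edgeR). For HC-like minus stromal-like cells the values were −1.91 for S100a1, 5.42 for S100a6, −2.19 for S100a10, −1.50 for S100a11 and −2.10 for S100b. For HC-like minus macrophage-like cells they were −4.17 for S100a4, 2.23 for S100a6, 5.89 for S100a9, −3.94 for S100a10, −2.74 for S100a11 and 1.91 for S100a13. S100a4 and S100a9 passed the filter on low counts there through macrophage-like cells and not in HC-like cells. For stromal-like minus macrophage-like cells they were 2.43 for S100a1, −3.65 for S100a6, −1.77 for S100a10, 1.55 for S100a13 and 1.85 for S100b.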

How the results depend on the processing

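Of 26 called member differences, the replicate block kept 26 of 26 and clustering at resolution 2 kept 26 of 26, DESeq2 kept 24 of 26, and leaving out 1 library kept 180 of 199 fits. For the 16 called differences between classes, leaving out 1 library kept 120 of 128 fits. The ratio to the rest of the library kept 11 of 26, with 12 no longer past the threshold (5 of them in erythroid-like cells, where 3 against 4 libraries cannot go below 0.0571) and 3 turned. Every same-numbered pair had a correlation of deviations over 0.1 in erythroid-like cells alone (0.20 to 0.22), while the lowest pair was at 0.076 in supporting cell-like and 0.098 in T or NK cell-like cells, so the numbers were not taken to pair the libraries. Differently numbered pairs were not compared, so this check cannot show that pairing is absent. In macrophage-like cells 6 genes were past the threshold with the block, against 14 without it, with S100a8 at 0.40 and S100a9 at 0.33. Genes past the threshold in macrophage-like cells were 24 with DESeq2, 3 without TMM factors, 175 without a filter on low counts and 63 under 10% mitochondrial UMIs, with 4 and 7 members under the last 2. There S100a8 was 5.83 and S100a9 5.47 under 10% mitochondrial UMIs, and with 1 library left out from −3.32 to 2.27 and from −3.49 to 2.58 (the highest without Cochlea replicate 5), and S100a4 and S100a6 were −0.66 and −0.20 without the 5% of cells with most UMIs. In B cell-like cells 24 genes became 14 (DESeq2), 38 (no TMM factors), 113 (no filter) and 13 (most UMIs left out), and 1 member became 0 with DESeq2 or with S100 genes kept for clustering. In T or NK cell-like cells no filter gave 17 genes and 1 member, with S100a4 at 0.044. In epithelial-like cells resolution 2 gave 318 genes, no filter 5 members, and S100a6 was −2.75 with most UMIs left out. In erythroid-like cells 275 genes became 133 (DESeq2), 735 (no TMM factors), 524 (no filter) and 723 (most UMIs left out). No filter gave 2518 genes in stromal-like and 2997 in supporting cell-like cells, where 10% mitochondrial UMIs gave 855, and 3 stromal-like members were left without the Otos-led cluster, which gives S100a9 no value. S100a13 was −0.084 in stromal-like cells without TMM factors. Between stromal-like and macrophage-like cells 461 genes became 766 without TMM factors, and no filter gave 8 members. Without cluster 12, S100a13 in HC-like cells was −0.89 and S100a6 between HC-like and macrophage-like cells −0.47. As ratios to the rest of the library, S100a1 was 1.44 in HC-like and 0.94 in supporting cell-like cells, and S100a9 −0.93 in stromal-like cells. The causes were not tested.

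With 1 library left out, genes past the threshold ranged from 0 to 104 (B), 0 to 4 (T or NK), 724 to 1238 (epithelial), 38 to 853 (erythroid), 3069 to 3578 (HC), 0 to 28 (macrophage), 1092 to 1696 (stromal) and 1356 to 2125 (supporting). Members ranged from 0 to 1, 0 to 0, 3 to 3, 4 to 6, 6 to 6, 0 to 1, 3 to 7 and 4 to 6 in the same order. For HC-like minus macrophage-like cells the ranges were 481 to 1017 genes and 4 to 7 members, for HC-like minus stromal-like 1852 to 3005 and 4 to 6, and for stromal-like minus macrophage-like 206 to 581 and 3 to 7. The S100a10 to Anxa2 ratio ranged from 0.92 to 1.72 and the S100a9 to S100a8 ratio from −0.035 to 0.20. In stromal-like cells calls ended without Cochlea replicate 4 or 5 or Vestibule replicate 3 for S100a1, replicate 3 of either organ for S100a10, Cochlea replicate 3 for S100a11, and Cochlea replicate 3, 4 or 5 for S100a9. In B cell-like cells the S100a1 call ended without Cochlea replicate 3 or Vestibule replicate 3 or 5. Between classes, it ended without Cochlea replicate 3 for S100b (HC-like minus stromal-like −1.61, stromal-like minus macrophage-like 1.90), and without Vestibule replicate 3 for S100a10 (−1.55) and S100a13 (1.49) between stromal-like and macrophage-like cells.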
